A study of Homo sapiens with 12 samples.

Results

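Promoter CpG island regions of HL-60 cells are described here: the enriched regions of a 5-hydroxymethylcytosine (5hmC) table and of a 5-methylcytosine (5mC) table that overlapped a CpG island (deposited island distance 0) and lay within 1000 bases of a gene start by the deposited promoter distance. The rule used no counts. It chose 2058 of 327949 listed 5hmC regions (0.628%) and 359 of 65535 listed 5mC regions (0.548%). Every chosen region was tested. The 5hmC regions belonged to 2025 genes and the 5mC regions to 386, and 189 genes were in both sets, which is 9.33% of the first and 49.0% of the second. Of the chosen regions, 1532 and 269 lay at distance 0 from a start, and 1609 and 281 lay inside a gene.

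HL-60 is an established line of human promyelocytic leukemia cells that mature toward neutrophils when grown in dimethyl sulfoxide (DMSO). Differentiated cells had 1.5% (211 mM) DMSO for 7 days and were sorted as viable, CD11b-positive cells, and undifferentiated cells were sorted as viable and CD11b-negative, so the states are sorted fractions of 1 line. Each state had 3 biological replicates, and DNA of every replicate was divided between an antibody against 5hmC and an antibody against 5mC, which gave 6 libraries per mark. Each 5hmC library held 13010267 to 33693880 counts, of which promoter island regions took 1.02 to 1.17%, and each 5mC library held 6076100 to 9670011 counts in listed regions, of which they took 2.10 to 2.61%. The 5mC table lists only regions that the authors' own test had ranked high (the largest p-value in the authors' deposited table was 0.0165), so the share of 5mC regions called has no meaning for the genome and values near no change are missing from it. Antibody capture follows CpG density and copy number as well as the share of modified cytosines, and no input library was used here.

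CpG islands are short stretches rich in the dinucleotide CpG, and they cover the starts of many human genes. Most promoter islands stay unmethylated. Methylated promoter islands occur at imprinted and germline genes and, in cancer cells, at many developmental genes. TET enzymes oxidise 5mC to 5hmC, which can be an intermediate in the removal of methylation or a lasting mark.

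To show what such a promoter looks like, RefSeq windows (GRCh38.p14, 250 bases before to 50 after the gene start, 5′ to 3′, CpG dinucleotides in capitals) are printed for the 2 largest rises and 2 largest falls of each mark that had a single window. A single window was found for 995 of the 5hmC genes and 198 of the 5mC genes, about 49.1% and 51.3%. This is under 80%, so a comparison of CpG content between regions that were higher and lower is void. The windows were not placed on hg19, the build of the regions. The first pair comes from genes whose 5hmC was higher in differentiated cells. FAM115A, now TCAF1, has 19 CpGs in its window, and PPP3R2 has 16.
FAM115A (chr7:143885321-143885620, minus strand): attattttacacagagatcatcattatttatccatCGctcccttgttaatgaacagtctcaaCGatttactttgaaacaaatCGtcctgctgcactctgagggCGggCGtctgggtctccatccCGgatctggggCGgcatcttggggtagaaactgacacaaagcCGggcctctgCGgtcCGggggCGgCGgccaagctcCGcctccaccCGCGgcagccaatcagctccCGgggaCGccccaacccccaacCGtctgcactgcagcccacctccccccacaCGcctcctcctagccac
PPP3R2 (chr9:101594920-101595219, minus strand): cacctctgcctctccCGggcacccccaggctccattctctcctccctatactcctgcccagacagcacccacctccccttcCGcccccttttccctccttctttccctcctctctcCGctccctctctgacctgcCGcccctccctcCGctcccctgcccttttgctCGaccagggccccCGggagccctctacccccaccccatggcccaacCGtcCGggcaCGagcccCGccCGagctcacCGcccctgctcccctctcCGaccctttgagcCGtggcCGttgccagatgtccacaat
The next pair comes from genes whose 5hmC was lower in differentiated cells. MTPAP has 17 CpGs and MED18 has 22.
MTPAP (chr10:30349229-30349528, minus strand): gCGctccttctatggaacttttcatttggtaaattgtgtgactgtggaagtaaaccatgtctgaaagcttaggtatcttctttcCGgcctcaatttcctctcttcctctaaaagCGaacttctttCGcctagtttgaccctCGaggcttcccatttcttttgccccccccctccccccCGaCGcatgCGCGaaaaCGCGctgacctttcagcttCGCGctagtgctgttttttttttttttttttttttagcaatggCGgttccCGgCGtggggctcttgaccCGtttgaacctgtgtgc
MED18 (chr1:28328790-28329089, plus strand): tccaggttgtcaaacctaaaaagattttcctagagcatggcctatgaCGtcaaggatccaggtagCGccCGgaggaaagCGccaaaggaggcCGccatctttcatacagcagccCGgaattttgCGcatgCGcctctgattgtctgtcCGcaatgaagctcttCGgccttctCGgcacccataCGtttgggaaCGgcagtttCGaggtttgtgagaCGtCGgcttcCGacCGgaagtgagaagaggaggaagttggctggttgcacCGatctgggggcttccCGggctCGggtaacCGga
For 5mC, SCIN (23 CpGs) and FSIP2 (20) were higher, and EMX2 (21) and PLK3 (28) were lower in differentiated cells.
SCIN (chr7:12570470-12570769, plus strand): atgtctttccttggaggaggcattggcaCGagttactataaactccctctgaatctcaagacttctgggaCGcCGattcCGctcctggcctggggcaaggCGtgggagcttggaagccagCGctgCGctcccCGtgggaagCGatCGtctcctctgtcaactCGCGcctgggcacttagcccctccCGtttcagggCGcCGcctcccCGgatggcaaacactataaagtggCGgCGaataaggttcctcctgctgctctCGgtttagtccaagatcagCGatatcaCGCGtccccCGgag
FSIP2 (chr2:185738554-185738853, plus strand): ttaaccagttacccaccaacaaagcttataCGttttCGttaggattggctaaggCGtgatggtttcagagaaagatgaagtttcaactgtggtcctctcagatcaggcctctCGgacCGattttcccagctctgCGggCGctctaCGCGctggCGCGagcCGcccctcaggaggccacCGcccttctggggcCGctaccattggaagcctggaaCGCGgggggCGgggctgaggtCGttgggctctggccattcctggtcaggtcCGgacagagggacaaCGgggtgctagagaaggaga
EMX2 (chr10:117542496-117542795, plus strand): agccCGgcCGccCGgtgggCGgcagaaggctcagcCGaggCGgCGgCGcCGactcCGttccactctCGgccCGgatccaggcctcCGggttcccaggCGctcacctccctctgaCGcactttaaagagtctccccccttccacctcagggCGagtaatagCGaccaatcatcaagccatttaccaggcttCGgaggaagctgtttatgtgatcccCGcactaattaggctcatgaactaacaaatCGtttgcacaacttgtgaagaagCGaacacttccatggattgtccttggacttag
PLK3 (chr1:44800127-44800426, plus strand): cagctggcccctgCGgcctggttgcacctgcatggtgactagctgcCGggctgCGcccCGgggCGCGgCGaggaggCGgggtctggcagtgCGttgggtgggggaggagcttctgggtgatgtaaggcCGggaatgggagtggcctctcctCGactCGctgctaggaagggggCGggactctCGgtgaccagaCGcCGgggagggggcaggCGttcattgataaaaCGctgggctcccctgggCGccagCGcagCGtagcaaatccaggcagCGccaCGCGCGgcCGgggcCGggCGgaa

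With the libraries scaled over all regions (TMM), the typical promoter island region had more 5hmC in differentiated cells. This is a change relative to other regions, and its size depended on the scaling, as given further on. Its level had a median of 3.00 CPM per kb in differentiated and 2.42 in undifferentiated cells (CPM, TMM-scaled counts relative to the library's total). The median log2 fold change, differentiated over undifferentiated, was 0.39 over promoter island regions, and 1717 of 2058 (83.4%) were above 0. Over all tested 5hmC regions the median was −0.04. By edgeR's quasi-likelihood test over the whole table, with Benjamini-Hochberg adjusted p under 0.05 as the call, 882 promoter island regions (42.9%) were higher and 97 (4.71%) were lower in differentiated cells. Among all 327901 tested regions the called shares were 27.0% higher and 23.3% lower. In either direction 47.6% of promoter island regions were called with this scaling, below the 50.3% of all regions. CPM ranges of the states did not overlap in 1068 promoter island regions (51.9%), close to the 52.2% of all regions.

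In the 5mC table the median promoter island region had 9.67 CPM per kb in differentiated and 7.61 in undifferentiated cells, with a median log2 fold change of 0.41, against 0.22 over all listed regions. The test called 238 of 359 higher and 43 lower. The background was 35.7% higher and 37.0% lower, or 72.7% in either direction. Non-overlapping ranges were found for 319, with a background of 86.1%.

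**Figure D1:**
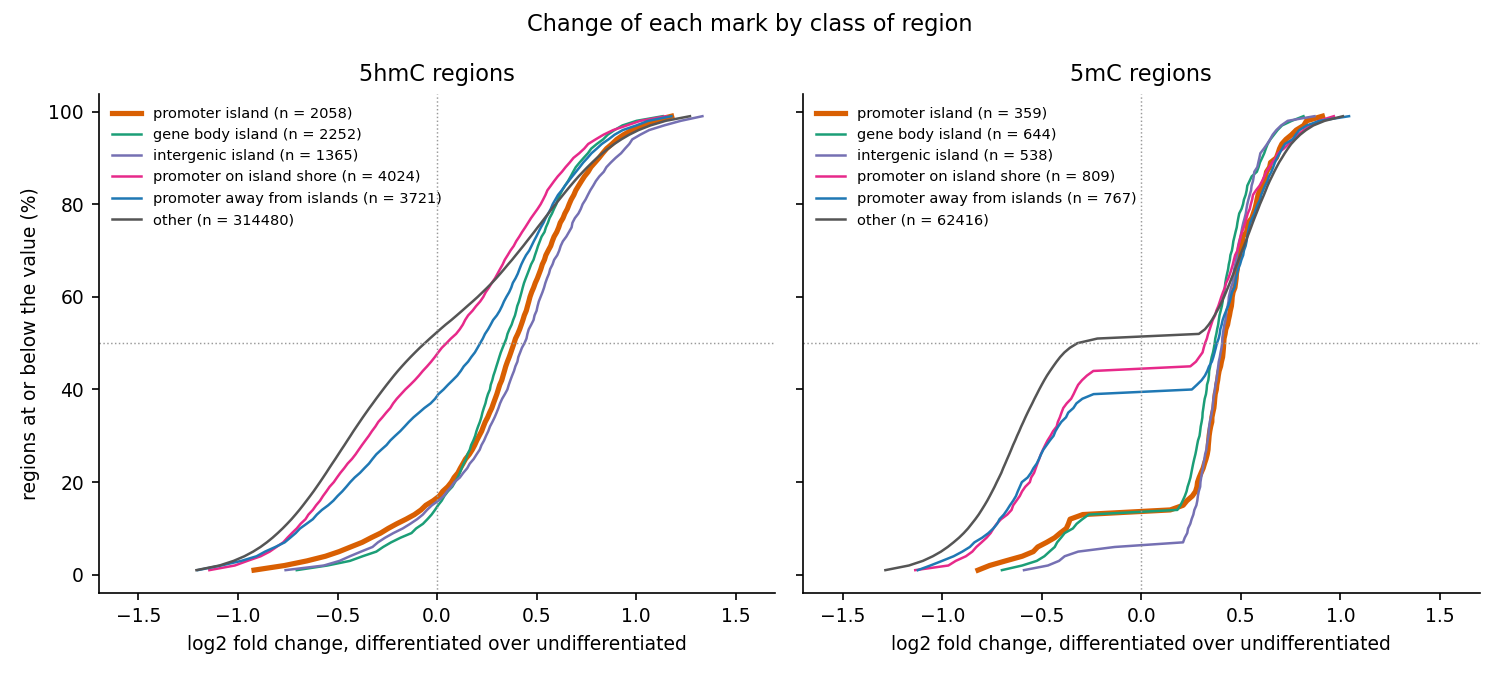
Cumulative distribution of log2 fold changes (x axis, differentiated over undifferentiated) over the tested regions of each class (y axis, percent of regions at or below the value) for 5hmC (left) and 5mC (right); each curve is 1 class. The curve of promoter island regions runs with those of gene body and intergenic islands. For 5hmC it lies to the right of promoters away from islands. For 5mC it does so in the lower and middle part only, and the curves meet above (at quantile 0.9, 0.678 for promoter islands and 0.682 for promoters away from islands). The flat stretch for 5mC is where the selected list holds no values.

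The same direction was found in islands that lay at no promoter. Of 2252 gene body island regions, 832 had higher and 67 lower 5hmC (median log2 fold change 0.34), and of 1365 intergenic island regions, 677 had higher and 50 lower (median 0.44). Promoters more than 2000 bases from an island were split more evenly, with 1155 higher and 632 lower of 3721 and a median of 0.22. Promoters on island shores, within 2000 bases of an island, had 969 higher and 874 lower of 4024, and a median of 0.05. For 5mC the corresponding counts were 443 higher and 65 lower of 644 gene body islands, 408 and 26 of 538 intergenic islands, and 350 and 224 of 767 promoters away from islands. Promoters on island shores had 304 higher and 274 lower of 809 in 5mC.

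A ratio within a library needs no scaling between libraries. Counts were not divided by region width here, so the size of an excess depends on width as well as level. The median width of promoter island regions was 800 bases in 5hmC and 1600 in 5mC, against 600 and 800 over all regions. Per kb, the median promoter island region of undifferentiated 5hmC libraries had 2.41 to 2.44 CPM, below the 2.57 to 2.58 of other regions. For 5hmC, the median log2(count + 1) of promoter island regions exceeded that of all other regions by 0.58, 0.45 and 0.58 in differentiated replicates 1 to 3, and by 0.22, 0.23 and 0.19 in undifferentiated ones. The states did not overlap and differed by 0.33, with p = 0.1 in an exact two-sided permutation test (0.12 adjusted over 6 comparisons), the smallest p that 3 against 3 libraries allow. For 5mC the excess was 1.26, 1.27 and 1.29 in differentiated and 0.93, 0.96 and 0.93 in undifferentiated libraries, also a difference of 0.33 (exact permutation p = 0.1). The listed 5mC regions had been selected by the authors' test between the states on these libraries. The 5mC differences here and below therefore describe the list, and their p-values are no independent support.

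Against promoters away from islands the excess of 5hmC averaged 0.25 ± 0.073 in differentiated and 0.02 ± 0.022 in undifferentiated libraries (SD, n = 3 each), and that of 5mC 0.85 ± 0.031 and 0.59 ± 0.044. Neither pair of groups overlapped (difference 0.22 and 0.26, exact permutation p = 0.1 each). Against other CpG island regions, by contrast, the 5hmC values overlapped, with a mean of −0.18 ± 0.038 in differentiated and −0.19 ± 0.021 in undifferentiated libraries (difference 0.01, exact permutation p = 0.8). For 5mC they were −0.42 ± 0.0044 and −0.44 ± 0.015, which did not overlap but differed by 0.03 only (exact permutation p = 0.1). Widths differed here too: the 5mC median was 1600 bases in promoter islands, 2000 in gene body and intergenic islands and 1000 in promoters away from islands. Per kb, the median 5mC promoter island had 9.67 CPM in differentiated cells, no less than the 9.23 of gene body and 9.58 of intergenic islands. Summed counts gave another answer than medians. The log2 ratio of the sum over promoter islands to that over other islands averaged −0.96 ± 0.047 in differentiated and −0.80 ± 0.024 in undifferentiated 5hmC libraries (difference −0.16, exact permutation p = 0.1), and −0.69 ± 0.040 and −0.44 ± 0.019 in 5mC libraries (difference −0.25, exact permutation p = 0.1). These sums include the wide regions around MYC described further on.

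**Figure D2:**
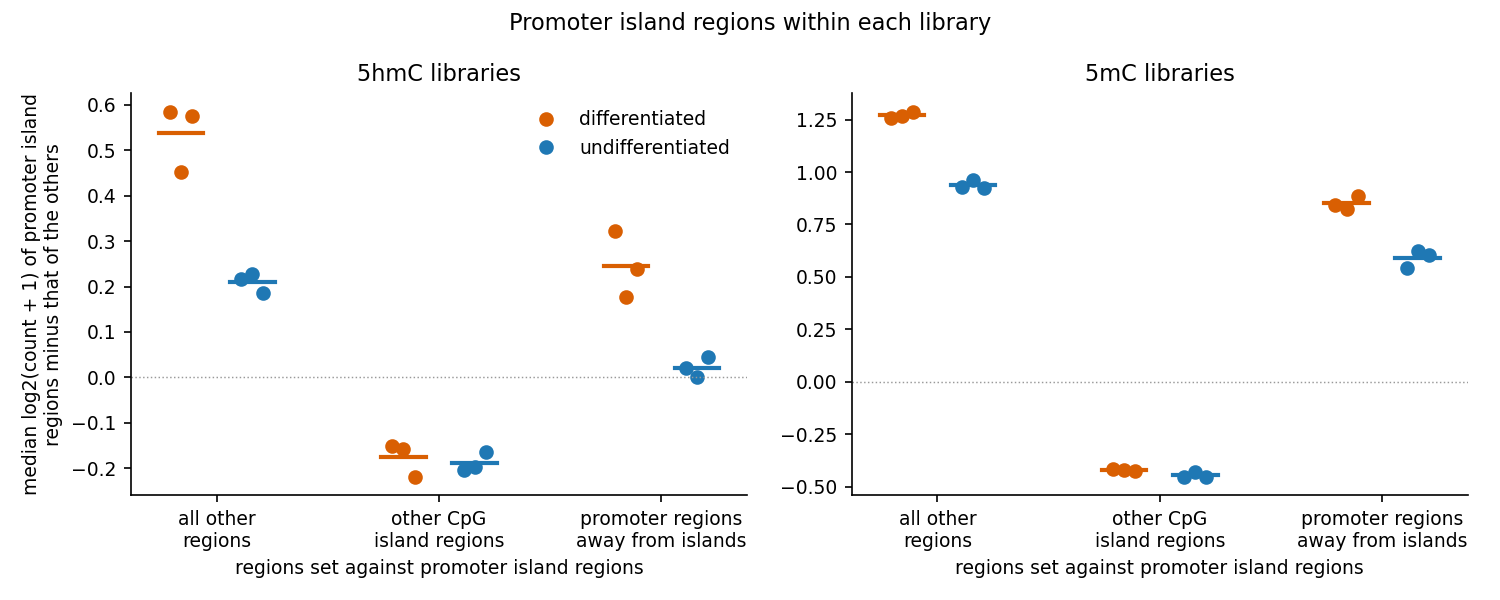
Median log2(count + 1) of promoter island regions minus that of 3 other sets of regions (y axis), for each library (points) with the mean (bars), differentiated left of undifferentiated, for 5hmC (left) and 5mC (right). The states separate against all other regions and against promoters away from islands, while against other islands they differ by 0.01 for 5hmC and 0.03 for 5mC. The 5mC regions had been selected by a test between the states. Counts were not divided by region width.

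How many regions were higher or lower depended on the scaling of the libraries. Over all 5hmC regions the median log2 fold change was −0.04 with TMM on all regions, −0.25 with library totals, −0.33 with TMM on the top 10% of regions by CPM and −0.41 with TMM on promoter islands alone. Over promoter island regions it was 0.39, 0.17, 0.10 and 0.02 in the same order. A scaling moves all regions by nearly the same amount, so the distance between the median of promoter islands and that of all regions hardly changes by construction (0.42 to 0.43). The calls of promoter islands were 882 higher and 97 lower with TMM on all regions. They were 358 higher (17.4%) and 204 lower (9.91%) with library totals, where 14.0% of all regions were higher and 36.1% lower. With the top 10% they were 238 higher (11.6%) and 244 lower (11.9%), against 10.3% and 40.9% of all regions. With TMM on promoter islands they were 168 higher (8.16%) and 293 lower (14.2%), against 7.21% and 45.8% of all regions. The share of promoter islands called higher thus lay near that of all regions under these 3 scalings, and the share called lower was well below it. Of the promoter islands called, 90.1%, 63.7%, 49.4% and 36.4% were higher in the same order.

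For 5mC the all-region medians were 0.22, −0.03, −0.06 and −0.18 in that order, and those of promoter islands 0.41, 0.16, 0.13 and 0.02. The calls were 238 higher and 43 lower with TMM on all regions (84.7% higher), 20 and 50 with library totals (28.6%), 14 and 50 with the top 10% (21.9%) and 1 and 54 with TMM on promoter islands (1.82%). Among all listed 5mC regions 3.81%, 2.97% and 0.951% were higher under the last 3 scalings, against 5.57%, 3.90% and 0.279% of promoter islands. All listed regions were called lower in 49.9% under each of these, against 13.9%, 13.9% and 15% of promoter islands.

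Under all 5 scalings, DESeq2's size factors included, 168 5hmC regions were called higher and 94 lower, and none was called both ways. For 5mC, 1 region was called higher under all 5, that of HDGFL1, and 43 lower, and 2 changed direction among their calls. Relative to TMM on all regions, the other scalings moved fold changes down or, with DESeq2's size factors, hardly at all. A region called lower was thus nearly bound to stay so, and this agreement is no sign of robustness. Single libraries also moved the counts. Without undifferentiated replicate 1 the 5hmC calls were 527 higher (25.6%) and 58 lower (2.82%), against 17.4% and 14.0% of all regions. Without differentiated replicate 3 they were 600 (29.2%) and 64 (3.11%), against 18.9% and 13.2%. The 5mC regions called lower numbered 26, 28 and 27 without differentiated replicate 1, 2 or 3, and 23, 34 and 28 without undifferentiated replicate 1, 2 or 3. These were 6.41% to 9.47% of promoter islands, against 22.8% to 23.7% of all listed regions. DESeq2's Wald test called 366 higher (17.8%) and 33 lower (1.60%) for 5hmC, against 13.2% and 7.09% of all regions. For 5mC it called 37 (10.3%) and 8 (2.23%), against 2.98% and 2.22% of listed regions.

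**Figure D3:**
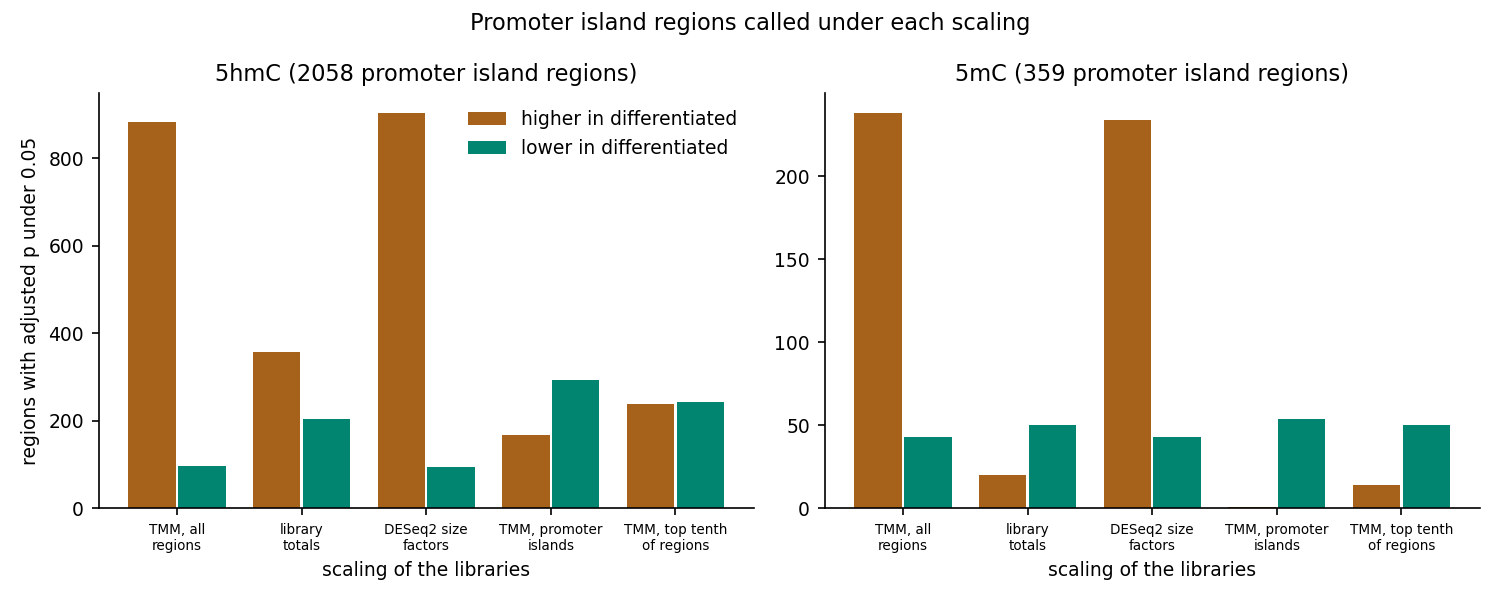
Number of promoter island regions with adjusted p under 0.05 (y axis, edgeR's quasi-likelihood test) called higher or lower in differentiated cells under 5 scalings of the libraries (x axis), for 5hmC (left) and 5mC (right). With TMM on all regions 882 and 238 were higher, and with TMM on promoter islands 168 and 1 were.

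The largest 5hmC rise among the named regions lay at the start of TPTE, a phosphatase-like gene of the testis (hg19 chr21:10989801-10990600). It had 1.80, 0.806 and 1.75 CPM in differentiated replicates 1 to 3, against 0.597, 0.531 and 0.362 CPM in undifferentiated ones. The log2 fold change was 1.58 (SE 0.293, adjusted p = 4.03e-05), and the states did not overlap. The region averaged 0.975 CPM over the 6 libraries, below the limit of 1 CPM set for the rises that follow. It rested on few reads, with 32, 9 and 56 counts in differentiated and 22, 11 and 6 in undifferentiated replicates. TPTE has close copies, so reads could be shared among them.

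FAM115A, a regulator of a TRP ion channel, had 1.97, 1.34 and 2.16 CPM in differentiated cells, against 0.515, 1.06 and 0.483 CPM in undifferentiated cells (chr7:143581601-143582600; log2 fold change 1.53, SE 0.270, adjusted p = 2.06e-05). CHN2, a chimaerin that inactivates the GTPase Rac, had 2.09, 1.43 and 2.57 CPM in differentiated and 0.787, 0.916 and 0.483 CPM in undifferentiated libraries (chr7:29235001-29235400; 1.52, SE 0.252, adjusted p = 7.61e-06). PPP3R2, a regulatory subunit of calcineurin made in the testis, had 3.83, 3.40 and 3.01 CPM in differentiated and 1.33, 1.25 and 1.21 CPM in undifferentiated libraries (chr9:104357001-104357600; 1.39, SE 0.196, adjusted p = 5.83e-07). In all of these every differentiated library lay above every undifferentiated one. The PPP3R2 region also lies inside GRIN3A, a glutamate receptor gene.

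FAM115A, CHN2 and PPP3R2 averaged at least 1 CPM and did not overlap between the states. Under these limits the other large rises were at PTPRB, a receptor phosphatase of blood vessels (1.49), CTNNA2, a catenin of neurons (1.45), FLJ41350 (1.44), MIR4737 (1.41) and LINC00552 (1.36). Each of the 8 regions chosen for the largest 5hmC rises was called higher under all 5 scalings, with log2 fold changes of 0.99 to 1.16 relative to other promoter islands.

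Under the same limits the largest 5hmC fall was at MTPAP, the mitochondrial poly(A) polymerase (chr10:30638001-30639000). It had 0.451, 0.537 and 0.783 CPM in differentiated libraries, against 1.22, 1.69 and 1.57 CPM in undifferentiated ones, so that the log2 fold change was −1.18 (SE 0.285; adjusted p = 0.000929). MED18, a subunit of the Mediator complex, had 0.789, 1.07 and 0.564 CPM in differentiated and 1.65, 1.78 and 1.51 CPM in undifferentiated libraries (chr1:28655601-28656000; −1.17, SE 0.269, adjusted p = 0.000539). HSP90AA1, the inducible cytosolic HSP90 chaperone, had 1.07, 1.16 and 1.03 CPM in differentiated and 2.52, 1.83 and 2.41 CPM in undifferentiated libraries (chr14:102554001-102554600; −1.09, SE 0.226, adjusted p = 0.000169). The states did not overlap at these 3 genes, which are used by most cell types.

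Falls of 0.93 to 1.09 on the log2 scale were found at GRID2IP, a scaffold protein of synapses (−1.09), the zinc finger gene ZNF267 (−0.95), OSBPL1A, an oxysterol-binding protein (−0.94), the hydrolase gene ABHD14B (−0.93) and COQ3, a methyltransferase of coenzyme Q synthesis (−0.93). All 8 of these falls were called lower under all 5 scalings, which the direction of the scalings nearly fixed in advance. At these levels, 0.59 to 3.38 CPM in either state, a region of a 5hmC library rests on few reads: MTPAP had 8, 6 and 25 counts in differentiated and 45, 35 and 26 in undifferentiated replicates.

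**Figure D4:**
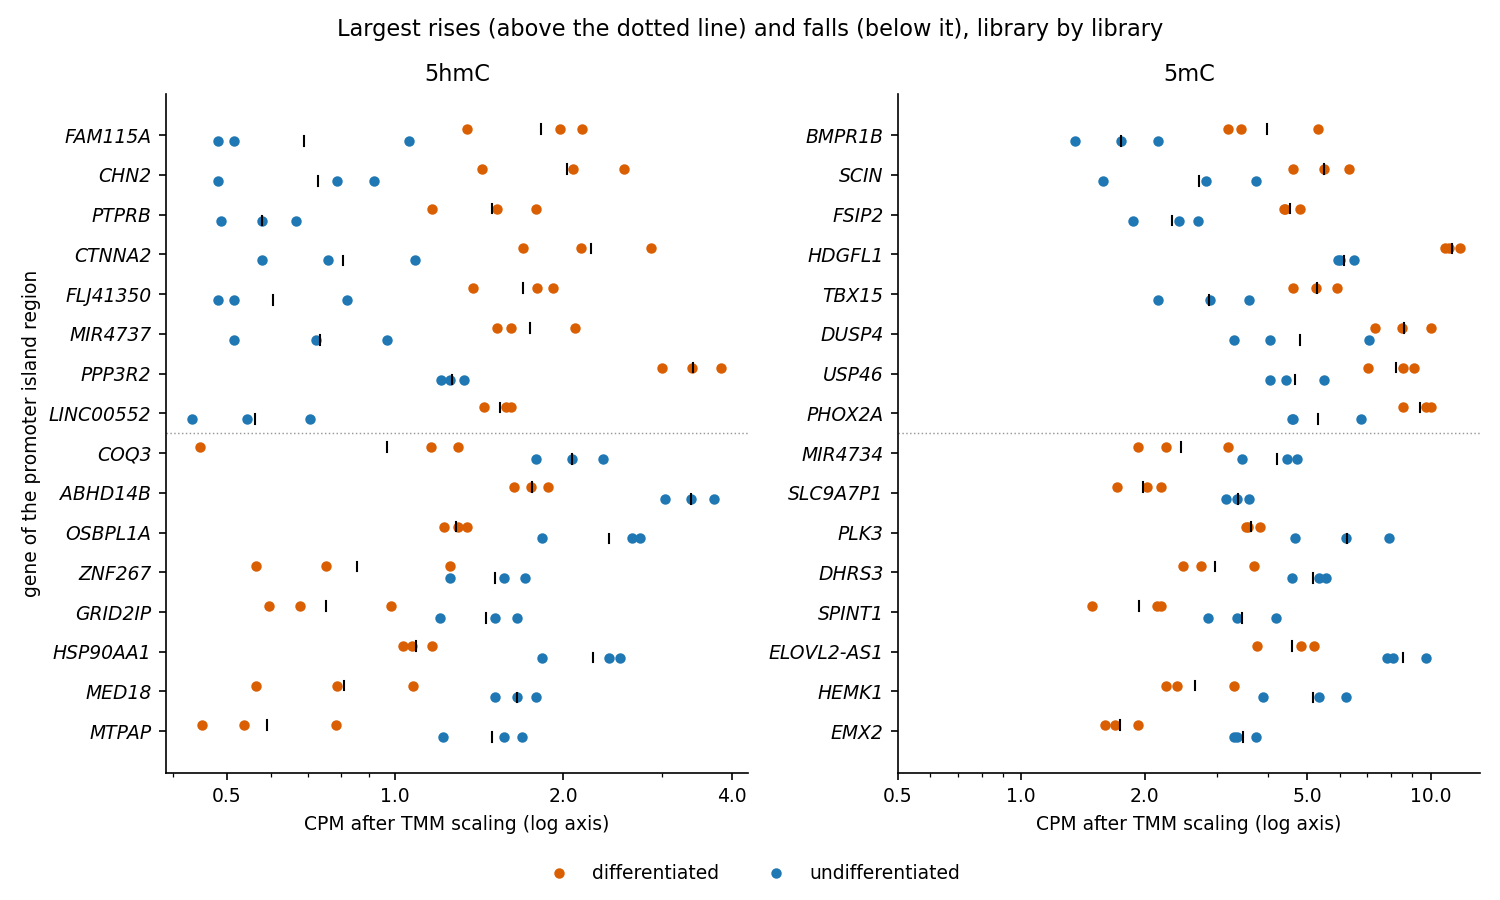
CPM after TMM scaling (x axis, log scale) of the 8 promoter island regions with the largest rises and the 8 with the largest falls, among regions averaging at least 1 CPM, in 5hmC (left) and 5mC (right), by gene (y axis); points are libraries, differentiated above undifferentiated, and black ticks are means. In every region shown the 3 differentiated libraries lie on one side of the 3 undifferentiated ones, by rule.

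Among the 5 promoter island regions with the most 5hmC per kb, MIIP, a gene named for inhibiting cell migration, was lower in differentiated cells, and VANGL1, a planar cell polarity gene, and UBE2QL1, a gene related to ubiquitin-conjugating enzymes, were higher. MIIP had 37.6, 49.6 and 37.6 CPM in differentiated and 66.8, 56.7 and 67.7 CPM in undifferentiated libraries (log2 fold change −0.62, SE 0.180, adjusted p = 0.00447), with no overlap. MIIP was lower under all 5 scalings, as nearly fixed by their direction. UBE2QL1 had 60.3, 80.3 and 50.0 CPM in differentiated and 45.2, 40.9 and 50.9 CPM in undifferentiated libraries, which overlapped (0.47, SE 0.184, adjusted p = 0.0288). It was called under 2 of the 5 scalings. VANGL1 had a log2 fold change of 0.55 (adjusted p = 0.00339) and was called under 3. RASGRF1, a Ras exchange factor, and BST1, the ectoenzyme CD157 of myeloid cells, were not called, with 0.35 (adjusted p = 0.0779) and 0.29 (adjusted p = 0.154), and BST1 was at −0.06 with TMM on promoter islands.

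The counts of the gene lists can be set beside the 42.9% higher and 4.71% lower of all 5hmC promoter island regions and their median of 0.39. Of 50 promoter island regions of developmental transcription factors, genes that pattern the embryo, 31 (62.0%) were called higher and none lower (median log2 fold change 0.59). Of 10 regions of the HOX clusters, which pattern the body axis, 6 were higher and 1 lower (median 0.61). At the homeobox gene DLX3 the log2 fold change was 1.09 (2.53 ± 0.321 CPM in differentiated, 1.19 ± 0.329 CPM in undifferentiated cells; SD, n = 3 each). HOXA6 and HOXA4 were at 0.83 and 0.81, while HOXA10, a regulator of myeloid progenitors, was lower at −0.45 (2.49 ± 0.167 CPM in differentiated, 3.33 ± 0.137 CPM in undifferentiated cells, adjusted p = 0.0261). With TMM on promoter islands alone, 5 developmental regions were higher and 1 lower (median 0.22), and 2 HOX regions were higher and 1 lower (median 0.25), so most regions of either list were not called higher relative to other promoter islands. The medians of both lists stayed above 0 under that scaling.

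Imprinted genes, methylated on the copy from 1 parent, had 8 of 15 regions higher and none lower (median 0.45). GNAS, which encodes the alpha subunit of the stimulatory G protein, held the 2 largest of these, 0.99 (adjusted p = 0.0011) and 0.98 (adjusted p = 0.00249), and its second region overlapped between the states with differentiated replicate 2 at 0.896 CPM. Germline genes had 8 of 22 higher (36.4%, below the share of all promoter islands) and none lower, with the same median of 0.39, among them TPTE and PIWIL1, which binds piRNAs in germ cells (2.16 ± 0.188 CPM in differentiated, 1.16 ± 0.136 CPM in undifferentiated cells; 0.89, adjusted p = 0.00117). With TMM on promoter islands these lists had 2 higher and 1 lower, and 4 higher and 1 lower. Of 6 regions of the list named tumour suppressors 4 were higher and none lower. The list includes CALCA, which encodes the hormone calcitonin and is not itself a tumour suppressor, at 0.84. It also includes ID4, an inhibitor of helix-loop-helix factors, at 0.71. The states overlapped at both, and with TMM on promoter islands none of the list was higher and 1 was lower.

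KRAB zinc finger genes of chromosome 19, whose products silence transposons, had 17 of 30 regions higher and 1 lower, with a median of 0.37 beside 0.39 for promoter islands at large; with TMM on promoter islands 3 were higher and 4 lower. ZNF528 was at 1.09 and ZNF665 at 0.79, and ZNF227 was lower at −0.66 (adjusted p = 0.0281). Chromosome 19 held 305 of the 2058 regions (14.8%), against 4.03% of all 5hmC regions.

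Myeloid transcription factors had 5 of 13 regions higher (38.5%) and 1 lower (median 0.35, but −0.02 with TMM on promoter islands). MECOM, a zinc finger factor of blood stem cells, had 5.13, 5.46 and 3.63 CPM in differentiated and 2.44, 1.88 and 2.53 CPM in undifferentiated libraries, with no overlap (0.98, SE 0.172, adjusted p = 1.97e-05). LMO2, a bridging factor of blood progenitors, had 0.564, 0.537 and 0.470 CPM in differentiated and 0.868, 1.16 and 1.15 CPM in undifferentiated libraries (−0.99, SE 0.325, adjusted p = 0.0106). The LMO2 region averaged 0.790 CPM and rested on few reads, with 10, 6 and 15 counts in differentiated and 32, 24 and 19 in undifferentiated replicates. The 2 genes thus moved in opposite directions, each under all 5 scalings, which for the fall of LMO2 was nearly fixed in advance. SPI1, the gene of the myeloid master regulator PU.1, was at 0.20 (adjusted p = 0.468), and IRF2, an interferon regulatory factor, was higher at 0.66 with overlapping states.

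Genes of the methylation machinery had 4 of 7 regions higher and none lower (median 0.39). TET1, which makes 5hmC, had 5.10 ± 0.705 CPM in differentiated and 3.38 ± 0.381 CPM in undifferentiated cells (0.57, adjusted p = 0.00261), and MBD1, a methyl-CpG-binding protein, 23.1 ± 2.21 and 14.7 ± 0.568 CPM (0.65, adjusted p = 0.000902). The MBD1 region lies inside another gene, CXXC1, 457 bases from the MBD1 start. With TMM on promoter islands none of this list was higher and 2 were lower. Of 7 regions of replication and cell-cycle genes, which stop being used as cells leave the cycle, 1 was higher and 1 lower (median 0.10, but −0.27 with TMM on promoter islands): CDC45, a part of the replicative helicase, at 0.88, and POLD2, a subunit of DNA polymerase delta, at −0.43. Of 6 regions of Wnt genes 1 was higher, that of the Wnt antagonist SFRP5 at 0.63, and of 3 of ribosomal protein genes 1 was, that of RPS21 at 0.83; the medians of 0.18 and 0.23 were −0.18 and −0.14 with TMM on promoter islands. No 5hmC promoter island region belonged to the clustered protocadherins.

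**Figure D5:**
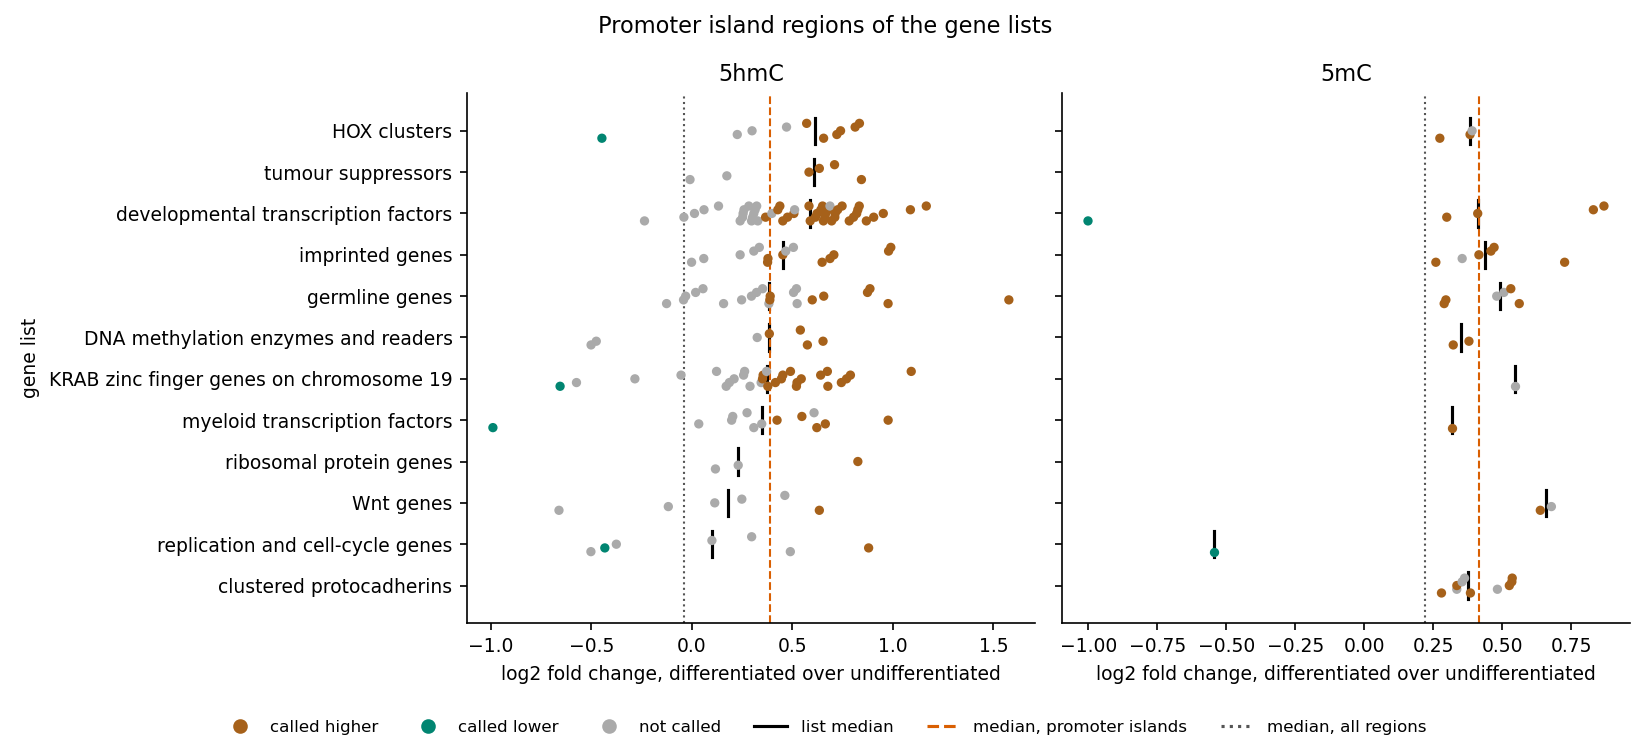
Log2 fold change, differentiated over undifferentiated, with TMM on all regions (x axis) of each promoter island region of the gene lists (y axis), for 5hmC (left) and 5mC (right). Points are regions coloured by call, black ticks are list medians, and vertical lines mark the medians of all promoter island regions (0.39 and 0.41) and of all regions (−0.04 and 0.22).

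In 5mC, among regions that did not overlap between the states, the largest rise was at BMPR1B, a receptor of bone morphogenetic proteins (chr4:95679801-95680200). It had 5.29, 3.44 and 3.20 CPM in differentiated and 1.75, 1.35 and 2.16 CPM in undifferentiated libraries, with no overlap (log2 fold change 1.18, SE 0.281, adjusted p = 0.00214). SCIN, an actin-severing protein, had 4.62, 6.33 and 5.49 CPM in differentiated and 2.83, 3.76 and 1.59 CPM in undifferentiated libraries (1.00, SE 0.237, adjusted p = 0.00213). FSIP2, a protein of the sperm tail, had 4.39, 4.40 and 4.80 CPM in differentiated and 2.42, 2.70 and 1.87 CPM in undifferentiated libraries (0.96, SE 0.251, adjusted p = 0.00552). HDGFL1, related to hepatoma-derived growth factor, held 11.8, 10.9 and 11.1 CPM in differentiated and 5.93, 6.01 and 6.49 CPM in undifferentiated libraries (0.88, SE 0.158, adjusted p = 3.67e-05), and was the region called higher under all 5 scalings. Other rises were at TBX15 (0.87), a factor of limb and skull development, DUSP4 (0.86), a phosphatase of MAP kinases, USP46 (0.83), a deubiquitinase, and PHOX2A (0.83), a homeobox factor of neurons.

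The largest 5mC fall under the same limit was at EMX2, a homeobox gene of the forebrain (chr10:119302201-119302600). It had 1.69, 1.93 and 1.60 CPM in differentiated and 3.37, 3.30 and 3.75 CPM in undifferentiated libraries, with no overlap, and on the log2 scale fell by 1.00 (SE 0.287, adjusted p = 0.0111). HEMK1, a methyltransferase gene, had 2.25, 3.30 and 2.40 CPM in differentiated and 6.20, 3.91 and 5.34 CPM in undifferentiated libraries (−0.98, SE 0.238, adjusted p = 0.00258). The HEMK1 region lies inside another gene, C3orf18, 510 bases from the HEMK1 start. Falls were also called at ELOVL2-AS1 (−0.89), SPINT1, a protease inhibitor (−0.84), DHRS3, a retinal reductase (−0.80), PLK3, a polo-like kinase (−0.78), the pseudogene SLC9A7P1 (−0.77) and MIR4734 (−0.76). Each of the 8 was called under all 5 scalings. The other scalings all moved 5mC fold changes down, so this agreement was fixed in advance. DESeq2's Wald test kept 8 of the 43 promoter island regions called lower in 5mC. Captured DNA carries no strand, so the ELOVL2-AS1 region cannot be assigned to 1 strand, and reads of the pseudogene may come from its parent gene.

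The regions with the most 5mC per kb included the repeated gene families TCEB3C and REXO1L, at which reads of near-identical copies cannot be told apart. MIR3648 and MIR3687, on chromosome 21, had 605 ± 32.4 CPM in differentiated and 454 ± 16.3 CPM in undifferentiated cells (0.42, adjusted p = 2.6e-08), and the TCEB3C family 1651 ± 25.0 and 1346 ± 20.6 CPM (0.30, adjusted p = 3.17e-05). The others were at LOC284412 (0.23) and at 2 regions of the REXO1L family (0.31 and 0.17). With TMM on promoter islands the log2 fold changes were 0.02 for MIR3648 and MIR3687, −0.10 for TCEB3C, −0.17 for LOC284412 and −0.09 and −0.23 for the REXO1L regions, so their direction rests on the scaling.

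Of all 5mC promoter island regions 66.3% were higher, with a median of 0.41. Clustered protocadherins, adhesion genes of neurons, did not exceed this, with 6 of 10 regions higher and none lower (median 0.37), among them PCDHGA11 at 0.54 and PCDHGB2 at 0.53. Imprinted genes had 5 of 6 regions higher and none lower (median 0.44), with SNURF and SNRPN at 0.73 (7.99 ± 1.28 CPM in differentiated, 4.82 ± 0.456 CPM in undifferentiated cells) and MEST at 0.47. Germline genes had 4 of 6 higher (66.7%) and none lower (median 0.49), among them PIWIL2 (0.56) and DAZL (0.53), an RNA-binding protein of germ cells. Of 5 regions of developmental factors 4 were higher and 1, at EMX2, lower. HOXA5 (0.38) and HOXB6 (0.27) were higher among 3 HOX regions, as were MBD1 (0.38) and DNMT3A (0.32), the 2 regions of the methylation machinery, MEIS2 (0.32) for myeloid factors and WNT9B (0.64) among 2 Wnt regions. The HOXB6 region lies inside HOXB7 and HOXB-AS3, 667 bases from the HOXB6 start, and that of MBD1 inside CXXC1. The 1 replication and cell-cycle region was that of MYC, the 1 KRAB region was not called, and no region belonged to ribosomal protein genes or tumour suppressors. With TMM on promoter islands no region of any list was called higher, and HOXA5, HOXB6, MBD1, DNMT3A and MEIS2 were below 0.

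Both marks could be set side by side at 175 overlapping pairs of promoter island regions. They come from the same DNA preparations, so the marks are not independent samples. With TMM on all regions both marks were called higher at 93 pairs and lower at 7. Under that scaling 42.9% of 5hmC and 66.3% of 5mC promoter island regions were higher anyway, and the 5mC list was selected for change. No count over pairs of all regions is given here, so agreeing or opposite calls cannot be taken as particular to promoter islands. The counts rested on the scaling: 90 and 7 with DESeq2's size factors, 9 and 20 with library totals, 5 and 20 with TMM on the top 10%, and 0 and 20 with TMM on promoter islands. BMPR1B had log2 fold changes of 1.15 for 5hmC and 1.18 for 5mC over the same 400 bases, COL6A1, a collagen gene, 0.94 and 0.69, and TPTE, at a region beside the one described above, 0.39 and 0.30. Falls in both were found at ELOVL2-AS1 (−0.84 and −0.89), HEMK1 (−0.51 and −0.98), SLC9A7P1 (−0.67 and −0.77) and CPSF2 (−0.66 and −0.76), the last a subunit of the complex that cleaves messenger RNA ends. DUX4 was higher in both (1.27 and 0.30) and lies in a repeat array whose copies cannot be told apart.

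Calls in opposite directions were found at 3 overlapping pairs with TMM on all regions, at 1 with library totals or the top 10%, and at 0 with TMM on promoter islands. C7orf10 had less 5hmC, with 1.35, 1.88 and 1.97 CPM in differentiated and 2.79, 2.70 and 1.93 CPM in undifferentiated libraries (−0.53, SE 0.199, adjusted p = 0.0241), which overlapped. In 5mC it had 29.6, 33.3 and 26.8 CPM in differentiated and 21.6, 19.5 and 18.6 CPM in undifferentiated libraries, with no overlap (0.58, SE 0.0984, adjusted p = 1.18e-05). The 5hmC fall held under all 5 scalings, as nearly fixed by their direction, and the 5mC rise under 4. EMX2 was the reverse, with 5hmC at 0.37 (adjusted p = 0.0457) beside its 5mC fall, but the 5hmC rise was 0.00 with TMM on promoter islands. The third pair was at MIR320E and PRKD2, with 0.52 for 5hmC and −0.25 for 5mC.

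The summed counts of promoter island regions went the other way from the typical region. The log2 ratio of their sum to that of all other regions averaged −6.49 ± 0.091 in differentiated and −6.40 ± 0.034 in undifferentiated 5hmC libraries (difference −0.09, exact permutation p = 0.2), and −5.48 ± 0.052 and −5.23 ± 0.015 in 5mC libraries (difference −0.25, exact permutation p = 0.1). A stretch of chromosome 8 around MYC, which HL-60 cells carry in amplified form, held 4 of the 5hmC regions and 30.1% of their counts, and 2 of the 5mC regions and 32.8% of their counts. Here MYC, the proliferation factor, and TRIB1, a pseudokinase, lay in regions of 83000 to 218400 bases.

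The 5mC region of MYC had 1274, 1509 and 1531 CPM in differentiated and 2169, 2013 and 2102 CPM in undifferentiated libraries (log2 fold change −0.54, SE 0.0544, adjusted p = 1.92e-14), and that of TRIB1 was at −0.57 (adjusted p = 2.65e-17). The 5hmC region of MYC had 462, 591 and 547 CPM in differentiated and 706, 702 and 668 CPM in undifferentiated libraries, with no overlap, but was not called with TMM on all regions (−0.38, SE 0.262, adjusted p = 0.214). It was called lower under 2 of the 5 scalings, and its log2 fold change was −0.73 with TMM on promoter islands. With TMM on all regions both of the wide TRIB1 regions in 5hmC were below 0 as well and not called (−0.20 and −0.48). Without this stretch, an alternative chosen after seeing the data, the difference of the summed ratio was 0.13 for 5hmC (exact permutation p = 0.1) and 0.02 for 5mC (p = 0.3). Since copy number of the locus was not measured here, less of a mark per copy and fewer copies cannot be told apart.

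By width, the median 5hmC log2 fold change was 0.46 for 777 regions of up to 600 bases, 0.37 for 783 of 800 to 1200 bases, 0.30 for 489 of 1400 to 10000 bases and 0.55 for the 9 regions over 10000 bases. Regions at distance 0 from a start had a median of 0.41, and those off the start had 0.34 in the nearer part of the allowed distance and 0.32 in the farther part. Regions near the starts of several genes (96 regions, 56 higher and 4 lower) had a median of 0.55, against 0.38 for those of 1 gene. Called higher were 58.3% of these 96 and called lower 4.17%. The shares were 42.9% and 4.71% over all 5hmC promoter island regions, and 27.0% and 23.3% over all 5hmC regions. Just inside the distance limit, at 901 to 1000 bases, 9 of 13 regions were higher and none lower in 5hmC (median 0.47), and just outside, at 1001 to 1100 bases, 4 of 12 were higher and none lower (median 0.31). The same shares apply as a baseline, and with so few regions no contrast between inside and outside is drawn. For 5mC the 5 regions just inside and the 2 just outside had medians of 0.34 and 0.49.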

How the data were processed

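Raw read counts per region for 6 libraries of each mark were deposited by the authors, with regions on a grid of 200 bases per the file headers' coordinates; distances to a gene start and to a CpG island are also the authors' deposited values, and no label or header names their annotation. The authors' deposited log2 fold changes, log2 CPM means and p-values were used only to find how the 5mC list was selected: its largest p-value of 0.0165 and largest adjusted p-value of 0.0826 imply 328588 tests. The submitters' processing notes name BWA, SAMtools 0.1.18, bedtools 2.17.0, SICER 1.1, edgeR 2.11 and GRCh37 (hg19), with no role for each.

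Each whole table was fitted in R 4.3.3 with edgeR 4.0.16 (filterByExpr, TMM, quasi-likelihood test, 3 libraries per state, no covariate). P-values were adjusted by Benjamini-Hochberg over all tested 5hmC regions, and for 5mC over the implied number of tests; the 5mC spread was still estimated from selected regions, so its p-values can be too small. Fold changes are differentiated over undifferentiated, with an SE derived from each fold change and its F statistic. The fit was tested on simulated data. Blank counts left 18 5hmC rows out, none of them a promoter island region. Within-library ratios were compared by exact two-sided permutation (20 splits).

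Alternatives were other scalings, DESeq2 1.42.0, no filter on low counts, a replicate block, leaving out each library, narrower regions or distances, and, chosen after seeing the data, leaving out the MYC stretch or regions under 1 CPM. Named were, per mark: the 8 largest rises and 8 largest falls among called regions with a mean of at least 1 CPM and no overlap; the 5 highest levels per kb; up to 2 called regions each way per gene list; up to 4 genes called in both marks per pair of directions; and MYC. Regions on X and Y were counted and not named. The members and the 12 lists (937 genes) were chosen with earlier results of these data known. Genes not covered by this rule (SPI1, and TRIB1 in the MYC stretch) were named after their values were seen. Replicates are biological, per the labels; sampling error of low counts limits precision.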

Additional observations from a re-analysis of the deposited data

How the results depend on the processing

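Counts of calls changed with the scaling, which shifts all regions nearly alike. For 5hmC, 882 higher and 97 lower became 358 and 204 with library totals, 168 and 293 with TMM on promoter islands, 238 and 244 with TMM on the top 10% of regions, and 366 and 33 with DESeq2's Wald test. Leaving out 1 library gave 527 to 952 higher and 58 to 103 lower (25.6% to 46.3% and 2.82% to 5.00%). Over all 5hmC regions the shares were 17.4% to 27.5% and 13.2% to 23.9%. For 5mC, 238 higher became 20, 1, 14 and 37 under the same alternatives, and 43 lower became 8 with DESeq2. Leaving out 1 library gave 163 to 177 higher and 23 to 34 lower (45.4% to 49.3% and 6.41% to 9.47%). Over all listed 5mC regions the shares were 21.6% to 23.1% and 22.8% to 23.7%. Adjusting over listed regions only called 309 higher and 50 lower, which is every promoter island region, as it called all 65534 listed regions tested. The summed ratio reversed from −0.09 (5hmC) and −0.25 (5mC) to 0.33 and 0.33 as a median per region, 0.25 and 0.31 with regions up to 2000 bases, and 0.13 and 0.024 without the MYC stretch. With a replicate block the 5hmC calls were 721 higher (35.0%, against 23.2% of all regions) and 84 lower (4.08%, against 19.6%). The 5mC calls were 241 (67.1%, against 35.3%) and 43 (12.0%, against 36.6%). Deviations of same-numbered libraries correlated between −0.12 and 0.01 over all regions, so the numbers were not taken as pairs. Reversed regions, with TMM on promoter islands, were BST1 (−0.060) in 5hmC, and in 5mC TCEB3C (−0.10), REXO1L (−0.091 and −0.23), LOC284412 (−0.17), HOXA5 (−0.014), HOXB6 (−0.12), MBD1 (−0.018), DNMT3A (−0.075), MEIS2 (−0.080), TPTE (−0.10) and DUX4 (−0.094). With the top 10% of regions BST1 was at −0.022, HOXB6 at −0.0083, LOC284412 at −0.050 and the second REXO1L region at −0.11, and with library totals the last 2 were at −0.024 and −0.082. The cause was not tested. Low counts per library limit what single narrow regions can show.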
